A study of Mus musculus with 18 samples.

Results

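The genes described here encode chaperones, folding enzymes, degradation factors and sensors of the endoplasmic reticulum (ER) that take part in the unfolded protein response. They were chosen by symbol: each of the 32 genes is the entry of the deposited count tables whose Ensembl identifier carries that symbol in GENCODE vM21, out of 55471 identifiers in all. All 32 were found, all 32 passed the filter on low counts in every fit, and their counts per library ran from 125 (Ern1) to 43786 (Calr). The cells were E14 mouse embryonic stem cells in 6 groups of 3 libraries. Gcn cells are homozygous knock-outs of Eif2ak4, the gene of the amino acid-sensing eIF2α kinase GCN2, and formed the groups Gcn Arg (starved of arginine for 3 h), Gcn Leu (starved of leucine for 3 h) and Gcn Unstarved. Wild-type cells formed Wt Arg, Wt Leu and Wt Unstarved in the same way. All groups spent those hours in SILAC medium with 5% dialyzed serum and leukaemia inhibitory factor, after growth on gelatin with 15% serum, and the unstarved cells had every amino acid. The labels do not say how many Gcn clones were used or whether replicates were separate cultures, so p-values measure how these samples spread, possibly for technical reasons, and the genotype cannot be told apart from the history of the line.

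Proteins that enter the secretory pathway pass the Sec61 channel into the ER, where HSP70- and HSP90-type chaperones, lectins and disulfide isomerases help them to fold. When unfolded proteins accumulate, the sensors ATF6 and IRE1 (encoded by Ern1) and the eIF2α kinase PERK turn on chaperone, degradation and export genes. IRE1 splices the mRNA of the transcription factor XBP1, and ATF6 is cut in the Golgi to free its transcription factor domain. PERK and GCN2 phosphorylate the same site of eIF2α, so that ATF4 and its targets answer both to ER stress and to missing amino acids. Stem cells divide fast and secrete matrix and signalling proteins, which their ER has to fold. The counts give total Xbp1 mRNA and do not separate its spliced form.

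The letters that ATF6 and XBP1 are known to read are shown first, because they group the 32 genes without use of the counts. The ER stress response element (ERSE) was searched as CCAAT, any 9 bases, CCACG on both strands of the RefSeq promoter windows of build GRCm38.p6, each 300 bases long from 250 before to 50 after a gene's start. Of the 32 genes, 27 had a window. Hyou1, Manf, Derl1, Atf6 and Sec61a1 had none. An ERSE stood in 8 of the 27 (29.6%), against 37 of 27025 genes with a window (0.137%). A match is a description of these letters and was not shown to be bound. The 8 genes are Hspa5, Hsp90b1, Dnajc3, Calr, Canx, Pdia6, Creld2 and Syvn1, and the element lay between 212 and 26 bases before the start. Below, capitals mark the parts CCAAT and CCACG of the element, and each line gives the strand on which the letters read.
Hspa5, all 250 bases before the start, chr2:34771840-34772089, plus strand: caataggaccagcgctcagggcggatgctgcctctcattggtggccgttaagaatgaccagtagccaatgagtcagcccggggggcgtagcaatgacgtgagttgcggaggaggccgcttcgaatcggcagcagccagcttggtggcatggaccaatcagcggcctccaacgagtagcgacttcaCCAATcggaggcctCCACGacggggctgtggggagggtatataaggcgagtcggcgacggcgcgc
Hsp90b1, first element, chr10:86705623-86705671, minus strand: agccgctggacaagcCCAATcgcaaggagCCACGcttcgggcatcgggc
Hsp90b1, other element, chr10:86705518-86705566, plus strand: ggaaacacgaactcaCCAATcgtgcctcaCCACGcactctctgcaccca
Dnajc3, chr14:118937812-118937860, plus strand: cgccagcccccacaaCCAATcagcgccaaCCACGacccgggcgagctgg
Calr, chr8:84847060-84847108, plus strand: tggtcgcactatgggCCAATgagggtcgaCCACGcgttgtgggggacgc
Canx, chr11:50325785-50325833, minus strand: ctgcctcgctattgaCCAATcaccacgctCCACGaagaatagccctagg
Pdia6, chr12:17266476-17266524, plus strand: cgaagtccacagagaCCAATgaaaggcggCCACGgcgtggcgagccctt
Creld2, chr15:88819505-88819553, minus strand: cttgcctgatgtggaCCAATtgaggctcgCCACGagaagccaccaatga
Syvn1, chr19:6046517-6046565, plus strand: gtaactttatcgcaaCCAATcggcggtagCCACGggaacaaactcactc

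The related ERSE-II (ATTGG, any 1 base, CCACG) was found in Dnajb11 alone, 8 to 18 bases after the start, against 0.0444% of all genes. The letters TGACGTGG, a classical XBP1 and ATF6 site called UPRE, were found in Sec24d alone, against 0.714% of all genes. The core CCACGT (or ACGTGG), which lies within UPRE as well, stood in 8 of 27 windows (29.6%), against 9.4% of all genes: those of Dnajb9, Dnajc3, Edem3, Os9, P4hb, Pdia5, Pdia6 and Sec24d. The ATF4 element TGATGNAAT stood in 0 of 27 windows, against 1.08% of all genes. The UPRE of Sec24d is in capitals below.
Sec24d, chr3:123267455-123267492, plus strand: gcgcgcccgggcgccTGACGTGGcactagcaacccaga

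The libraries held 14.8 to 38.8 M (mega) counts, of which the 32 genes took 0.56% to 0.749%. Eif2ak4 stood at 5.47 ± 1.03, 4.66 ± 0.71 and 5.23 ± 0.87 CPM (counts per M counts of the library, TMM-scaled) in Gcn Arg, Gcn Leu and Gcn Unstarved, against 28.9 ± 0.26, 27.6 ± 0.56 and 31.8 ± 1.9 CPM in Wt Arg, Wt Leu and Wt Unstarved (SD, n = 3), low in all 3 Gcn groups as labelled. The 10 stem cell markers checked summed to 6825 to 9440 CPM in every library, and none was under 1 CPM. Of 12 markers of primitive endoderm, a secretory cell type, the sum was 92.0 to 176 CPM, most of it Lama1, and Afp and Ttr were under 1 CPM in all groups. Of 9 fibroblast markers, Dcn, Lum and Postn were under 1 CPM in all groups, and Fn1 made up most of the sum. Col1a2 and Col3a1 were under 1 CPM throughout the Gcn groups but not throughout any Wt group. The 3 Gcn libraries numbered 1 stood apart from the other Gcn libraries in earlier work on these data, and results that rest on Gcn cells were also computed without them.

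CPM per kb divides by the merged length of all annotated exons of a gene, so it compares genes only roughly. By this level some chaperones and isomerases were at the top and the sensors Atf6 and Ern1 near or at the bottom. However, the co-chaperone Dnajc3 was low as well (8.81 ± 0.29 in Gcn Unstarved and 5.44 ± 0.23 in Wt Unstarved). So was the isomerase Pdia5 (9.44 ± 0.83 and 6.90 ± 0.45 in the same groups). Calr, a lectin chaperone that also binds calcium, led with 371 ± 1.9 CPM per kb in Gcn Unstarved and 304 ± 16 in Wt Unstarved (SD, n = 3). In Gcn Unstarved the next levels were those of Hsp90b1 (228 ± 6.5 CPM per kb), Pdia3 (202 ± 5.6), Hspa5 (181 ± 12), Canx (180 ± 1.2) and P4hb (177 ± 3.9), where the last 3 lay within their spread. In Wt Unstarved they were those of P4hb (168 ± 7.3 CPM per kb), Pdia3 (151 ± 3.6), Canx (144 ± 9.6), Hsp90b1 (143 ± 8.8) and Hspa5 (125 ± 0.54), where Pdia3, Canx and Hsp90b1 lay within their spread. Xbp1 was in the middle, with 24.9 ± 3.0 CPM per kb in Gcn Unstarved and 14.3 ± 2.0 in Wt Unstarved. Atf6 (4.86 ± 0.32 in Gcn Unstarved and 4.52 ± 0.42 CPM per kb in Wt Unstarved) and Ern1 (1.34 ± 0.12 and 1.53 ± 0.088 CPM per kb in the same groups) were near or at the bottom.

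**Figure D1:**
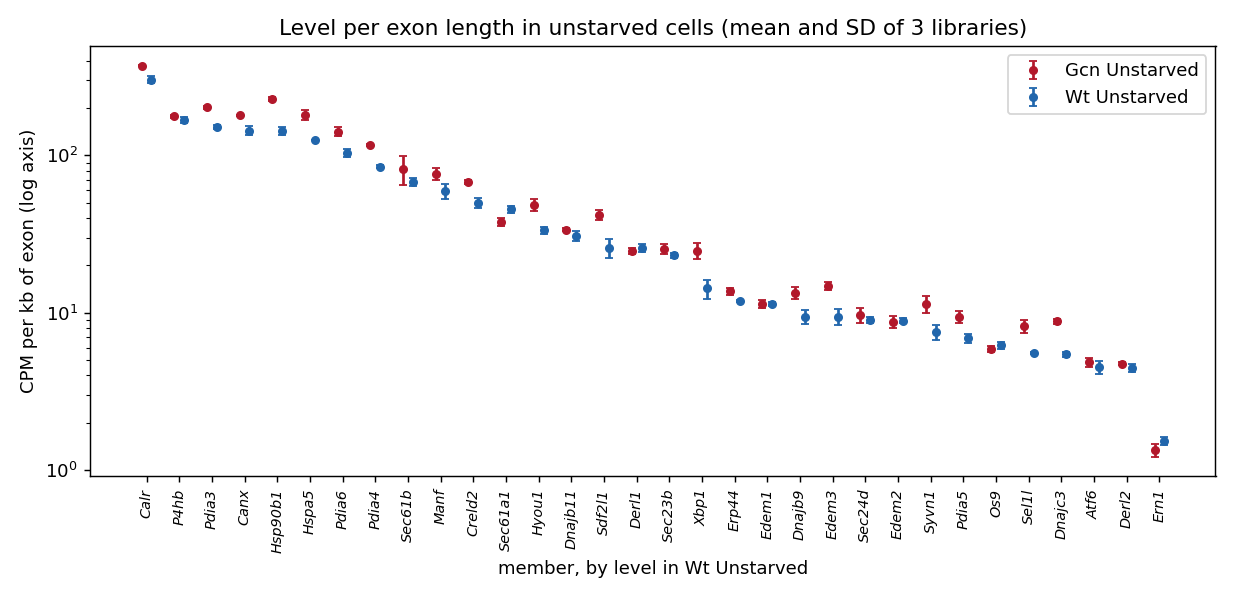
Level of each gene in CPM per kb of merged exon (log axis) in Gcn Unstarved (red) and Wt Unstarved (blue), as mean and SD of 3 libraries, ordered by the level in Wt Unstarved. Calr is highest and Ern1 lowest in both genotypes, and most red points lie above the blue ones.

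Without starvation, most of the 32 genes were higher in Gcn than in Wt cells. The 115 other pathway genes tested, described below, were near the share of all genes (20.9% called higher and 15.7% lower). Of the 32 genes, 19 were called higher and 1 lower in Gcn Unstarved than in Wt Unstarved at an adjusted p under 0.05, where 16.6% of all 16924 genes tested were called higher and 16.2% lower. The median log2 fold change was 0.35 over the 32 genes and -0.00 over all genes tested. The 3 Gcn libraries lay above the 3 Wt libraries without overlap for 19 of the 32, and below them for 2. That count was not made over all genes, so it only describes the 32. The changes were moderate: the highest, that of Xbp1, was 1.74-fold.

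Among the sensors and transcription factors, Xbp1 differed and the sensors themselves were not called. Xbp1 stood at 92.1, 75.0 and 75.1 CPM in Gcn Unstarved, against 41.3, 44.3 and 53.6 CPM in Wt Unstarved (log2 0.80 ± 0.10, adjusted p = 1.2e-06, each ± after a log2 value being an SE). The lowest Gcn library was above the highest Wt library. Atf6 (log2 0.10 ± 0.09, adjusted p = 0.395) and Ern1 (log2 -0.19 ± 0.12, adjusted p = 0.268) were not called, although the Ern1 libraries did not overlap.

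Of the 7 genes of the HSP70 and HSP90 systems, 6 were higher and Dnajb11 was not called. Hspa5 encodes BiP, the HSP70 of the ER, and had 814, 713 and 769 CPM in Gcn Unstarved, against 530.5, 532 and 528 CPM in Wt Unstarved (1.44-fold, log2 0.53 ± 0.11, adjusted p = 0.000689). Hsp90b1, the HSP90 of the ER, had 940.1, 890.1 and 929 CPM in Gcn Unstarved, against 564, 618 and 551 CPM in Wt Unstarved (1.59-fold, log2 0.67 ± 0.10, adjusted p = 1.76e-05). Both pairs of groups were well apart. Hyou1, the nucleotide exchange factor of BiP, was 1.45-fold higher (log2 0.54 ± 0.10, adjusted p = 0.000165).

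The partners of BiP followed the same direction. Dnajc3, a co-chaperone, had 46.8, 43.9 and 45.3 CPM in Gcn Unstarved, against 28.4, 28.9 and 26.6 CPM in Wt Unstarved (log2 0.70 ± 0.08, adjusted p = 8.36e-07). Sdf2l1, which works with the co-chaperone Dnajb11, had 44.6, 44.5 and 49.96 CPM in Gcn Unstarved, against 32.1, 24.3 and 29.7 CPM in Wt Unstarved (log2 0.69 ± 0.09, adjusted p = 5.85e-06). No library of Gcn Unstarved overlapped Wt Unstarved for either gene. Dnajb9, a co-chaperone that is also known to bind IRE1, had 31.4, 37.0 and 34.0 CPM in Gcn Unstarved, against 21.5, 24.1 and 26.7 CPM in Wt Unstarved (log2 0.51 ± 0.11, adjusted p = 0.00141). Dnajb11 itself stood at log2 0.13 ± 0.08 (adjusted p = 0.224, 95% interval -0.03 to 0.30), with overlapping groups.

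**Figure D2:**
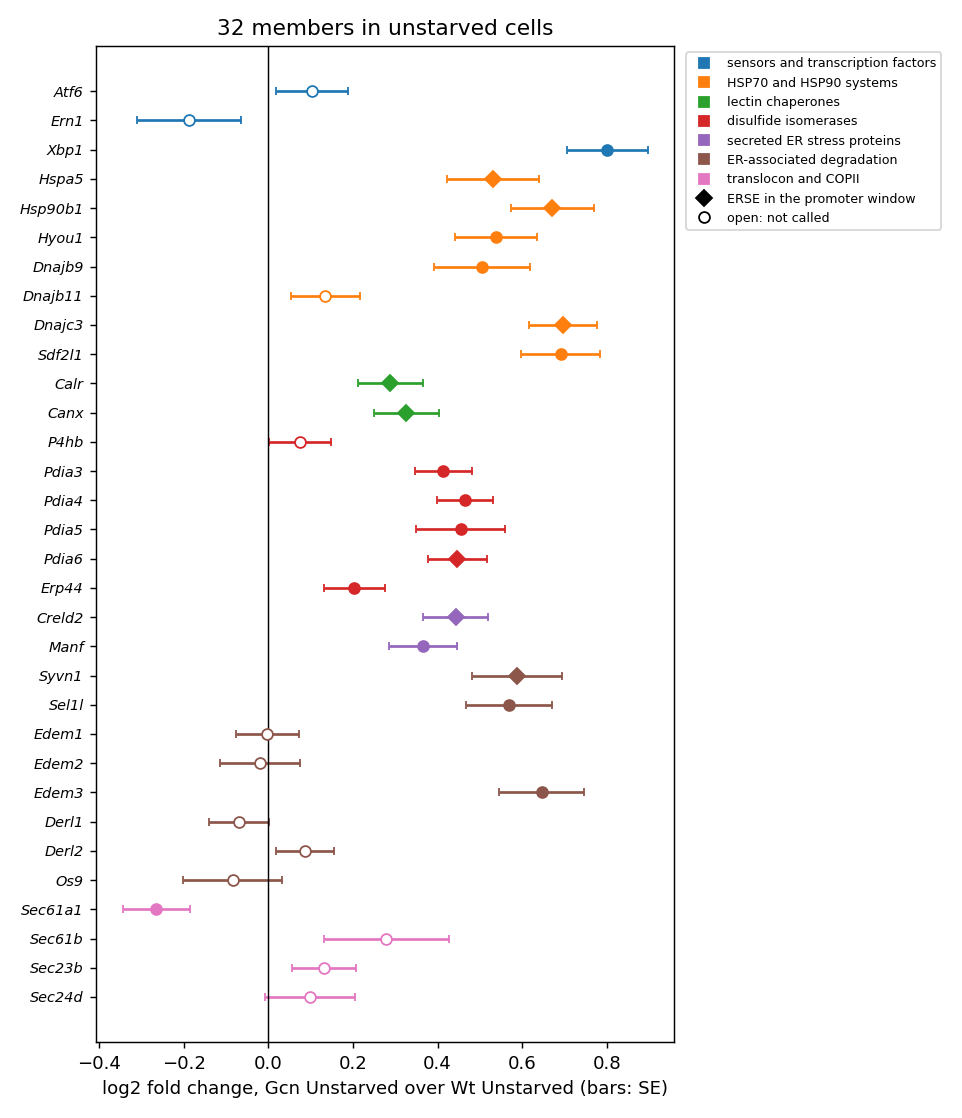
Log2 fold change of Gcn Unstarved over Wt Unstarved (x axis, bars are SE, 3 libraries a group) for the 32 genes, coloured by role. Filled points were called and open points were not, and diamonds mark the 8 genes with an ERSE, all filled and between 0.29 and 0.70.

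Both lectin chaperones were higher, Calr by log2 0.29 ± 0.08 (adjusted p = 0.00609) and Canx by 0.33 ± 0.08 (adjusted p = 0.00212). Of the 6 disulfide isomerases, 5 were higher: Pdia3, which works with the lectins (0.41 ± 0.07), Pdia4 (0.46 ± 0.07), Pdia5 (0.45 ± 0.10), Pdia6 (0.45 ± 0.07) and Erp44, which retrieves thiol-bound clients (0.20 ± 0.07, adjusted p = 0.0351). P4hb, the most abundant of them per kb in Wt Unstarved but below Pdia3 in Gcn Unstarved, was not called (0.07 ± 0.07, adjusted p = 0.48, 95% interval -0.07 to 0.22). Creld2 and Manf, small proteins that ER stress is known to induce and that can be secreted, were higher by 0.44 ± 0.08 and 0.37 ± 0.08. In these roles P4hb and Dnajb11 were the genes without a call.

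ER-associated degradation, which extracts misfolded proteins to the proteasome, had 3 of 8 genes higher in unstarved Gcn cells. Syvn1, the ubiquitin ligase HRD1, had 62.6, 52.0 and 50.4 CPM in Gcn Unstarved, against 33.9, 35.1 and 41.0 CPM in Wt Unstarved (log2 0.59 ± 0.11, adjusted p = 0.000201). Its adaptor Sel1l was higher by 0.57 ± 0.10 (adjusted p = 0.000184). Edem3, a mannose-trimming protein that marks glycoproteins for degradation, had 101, 91.9 and 89.8 CPM in Gcn Unstarved, against 57.1, 68.3 and 55.0 CPM in Wt Unstarved (log2 0.65 ± 0.10, adjusted p = 3.72e-05). Its relatives Edem1 (-0.00 ± 0.08) and Edem2 (-0.02 ± 0.10), the membrane proteins Derl1 (-0.07 ± 0.07) and Derl2 (0.09 ± 0.07) and the lectin Os9 (-0.08 ± 0.12) were not called. Sec61a1, the channel subunit through which proteins enter the ER, was the 1 lower gene and is shown by library because of that, after its values were seen, with 269, 251 and 242 CPM in Gcn Unstarved, against 297, 294 and 325 CPM in Wt Unstarved (log2 -0.26 ± 0.08, adjusted p = 0.0123). Its partner Sec61b (0.28 ± 0.15, adjusted p = 0.164) and the COPII coat subunits Sec23b (0.13 ± 0.08) and Sec24d (0.10 ± 0.11) were not called.

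The 8 genes with an ERSE in their window were all among the 19 called higher, with a median log2 fold change of 0.49. Of the 19 genes with a window and no ERSE, 9 were called higher, with a median of 0.20. The other motifs had mixed outcomes: Dnajb11, with the ERSE-II, and Sec24d, with the UPRE, were not called. Of the genes with the core CCACGT, Dnajb9, Dnajc3, Edem3, Pdia5 and Pdia6 were called higher. P4hb, Os9 and Sec24d, which also have the core, were not called. All these counts are descriptions of small sets that share libraries. The genotype calls of Erp44 and Sec61a1 rested on single libraries. Erp44 was not called without Gcn Unstarved 1 or 2 or without any Wt Unstarved library (highest adjusted p = 0.156), nor Sec61a1 without Gcn Unstarved 3 or Wt Unstarved 3 (highest adjusted p = 0.0734). Without the Gcn libraries numbered 1, 20 genes were called higher and 1 lower, where 2572 of all genes were higher and 2861 lower. Of these 21 calls, 19 were also made with all libraries, and Erp44 was not called (adjusted p = 0.0583). Gm42418, which overlaps ribosomal RNA sequence, took 1.5% to 3.97% of the counts in Gcn Unstarved, against 0.224% to 1.21% in Wt Unstarved, and the mitochondrial share was 2.04% to 2.99% over all libraries. Of 6 trophoblast markers, 4 were under 1 CPM in Gcn Unstarved and 1 (Elf5) in Wt Unstarved, and the sum was 5.97 to 7.36 CPM, against 18.3 to 20.03 CPM. The primitive endoderm markers summed to 97.5 to 120.1 CPM in Gcn Unstarved, against 98.9 to 141 CPM in Wt Unstarved, and the fibroblast markers to 413 to 561 CPM, against 505 to 583 CPM. Of the 9 fibroblast markers, 5 were under 1 CPM in Gcn Unstarved and 3 in Wt Unstarved. The part of all these markers in the result was not tested, and in bulk samples fewer cells of a type and less RNA per cell cannot be told apart.

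**Figure D3:**
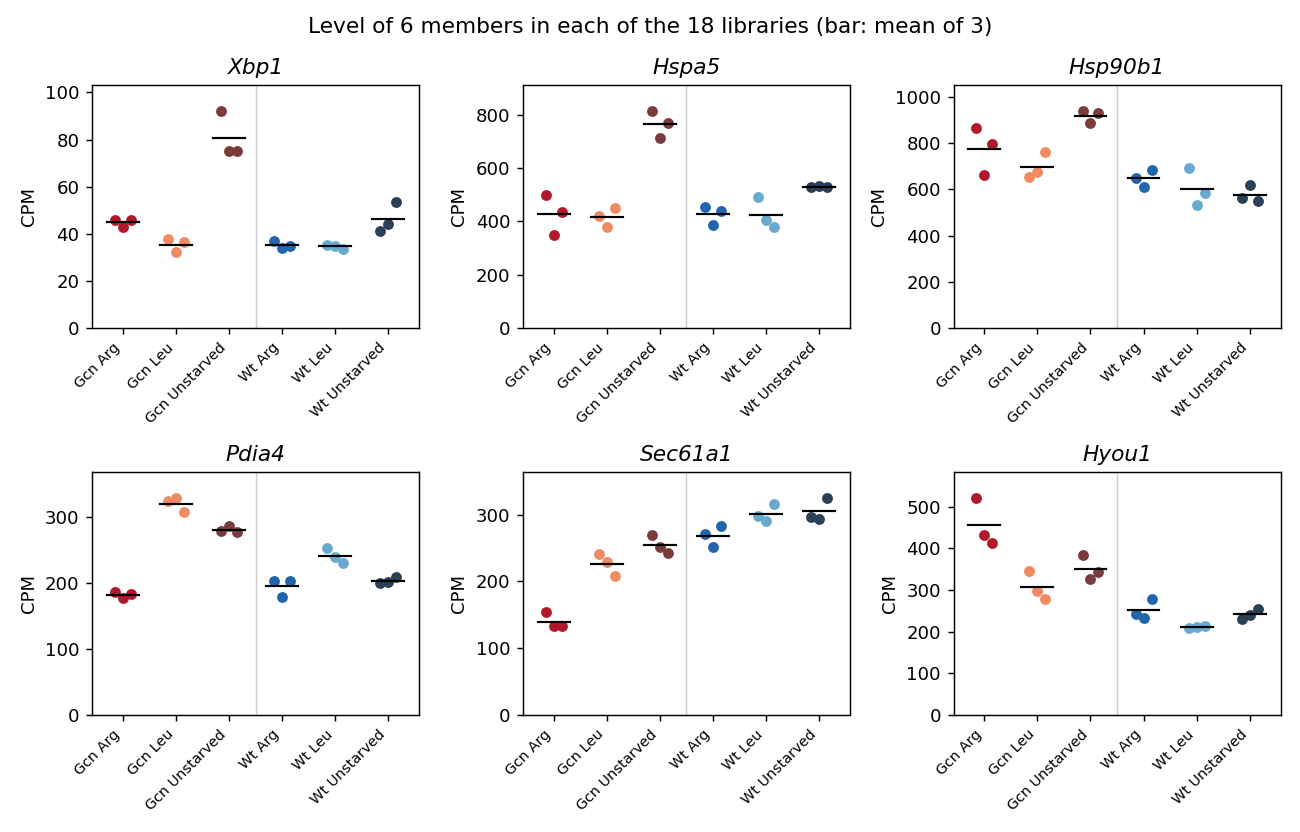
CPM (y axis, from 0) of 6 genes in each of the 18 libraries by group, with the mean of 3 libraries as a bar. Xbp1 and Hspa5 are highest in Gcn Unstarved, and Sec61a1 and Pdia4 are lowest in Gcn Arg.

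Under arginine starvation, more of these genes fell than rose in Gcn cells. In Gcn Arg against Gcn Unstarved, 12 of the 32 were called lower and 1 higher, where 13.7% of all 16369 genes tested were lower and 14.3% higher. The median log2 fold change was -0.20 over the 32 genes and -0.01 over all genes tested. With the replicate number of the labels as a block, 20 were lower and 3 higher. That block also raised the calls over all 16369 genes, to 3959 lower and 3643 higher. Scaled by library size only, which moves the median of all genes to 0.11, 8 were lower and 4 higher. With that scaling, 1397 of all genes were lower and 3449 higher. Without the Gcn libraries numbered 1, 12 were lower and 1 higher, where 2079 of all genes were lower and 2155 higher. The 9 fibroblast markers, mostly Fn1, summed to 595 to 966 CPM in Gcn Arg, against 413 to 561 CPM in Gcn Unstarved, and their part in these changes was not tested.

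All 3 sensors and transcription factors were lower in Gcn Arg. Xbp1 had 46.0, 42.9 and 45.8 CPM in Gcn Arg, against 75.0 to 92.1 CPM in Gcn Unstarved (1.79-fold lower, log2 -0.84 ± 0.10, adjusted p = 4.23e-05). Atf6 had 34.3, 27.9 and 31.9 CPM in Gcn Arg, against 47.1, 45.9 and 41.5 CPM in Gcn Unstarved (log2 -0.51 ± 0.09, adjusted p = 0.00124). Ern1 was lower by log2 -0.43 ± 0.14 (adjusted p = 0.0391), a call lost without Gcn Arg 2, Gcn Arg 3 or any Gcn Unstarved library (highest adjusted p = 0.147).

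The chaperones of the HSP70 system split in Gcn Arg. Hspa5 had 497, 348 and 436 CPM in Gcn Arg, against 713 to 814 CPM in Gcn Unstarved (1.78-fold lower, log2 -0.83 ± 0.12, adjusted p = 0.000167). Hyou1, its exchange factor, was the 1 gene called higher and is shown by library after its values were seen, with 522, 433 and 412 CPM in Gcn Arg, against 385, 325 and 342 CPM in Gcn Unstarved (log2 0.38 ± 0.11, adjusted p = 0.0145). That call was lost without Gcn Arg 1, Gcn Unstarved 2 or Gcn Unstarved 3 (highest adjusted p = 0.0825). Sdf2l1 had 52.2, 59.9 and 50.5 CPM in Gcn Arg, each above the 44.5 to 49.96 CPM of Gcn Unstarved, but was called only with the block (log2 0.24, adjusted p = 0.0769 without it and 0.0107 with it). Hsp90b1 had 864, 661 and 799 CPM in Gcn Arg, against 890.1 to 940.1 CPM in Gcn Unstarved (log2 -0.24, adjusted p = 0.107, or 0.0122 with the block), and Dnajb9 had 26.5, 32.3 and 31.0 CPM, against 31.4 to 37.0 CPM (log2 -0.18, adjusted p = 0.34, or 0.0401 with the block).

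Both lectins, 2 of 6 isomerases, 1 of 2 secreted proteins, 1 of 8 degradation genes and 2 of 4 translocon and coat genes were lower in Gcn Arg. Sec61a1 changed most, with 154, 132 and 132 CPM in Gcn Arg, against 242 to 269 CPM in Gcn Unstarved (1.81-fold lower, log2 -0.86 ± 0.09, adjusted p = 1.28e-05). Pdia4 had 186, 177 and 183 CPM in Gcn Arg, against 278, 286 and 277 CPM in Gcn Unstarved (1.53-fold lower, log2 -0.62 ± 0.08, adjusted p = 5.46e-05). Manf had 178, 184 and 199 CPM in Gcn Arg, against 256, 255 and 297 CPM in Gcn Unstarved (log2 -0.52 ± 0.09, adjusted p = 0.000907). For these genes the groups were far apart. Sec24d was lower by log2 -0.50 ± 0.12, Canx by -0.38 ± 0.09, Calr by -0.34 ± 0.09, Edem1 by -0.34 ± 0.09 and Pdia3 by -0.28 ± 0.08. The calls of Calr (without Gcn Arg 3, adjusted p = 0.0538), Edem1 (without Gcn Unstarved 1, 0.0508) and Pdia3 (without Gcn Arg 2, Gcn Arg 3 or Gcn Unstarved 2, at most 0.0887) were each lost without single libraries.

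Leucine starvation of Gcn cells changed fewer of the genes. In Gcn Leu against Gcn Unstarved, 6 of 32 were called lower and 2 higher, where 10.0% of all 16369 genes were lower and 11.7% higher. The median log2 fold change was -0.10 over the 32 genes and 0.00 over all genes tested. With the block, 14 were lower and 5 higher, where 3303 of all genes were lower and 3348 higher. Scaled by library size only, which moves the median of all genes to 0.08, 4 were lower and 4 higher. With that scaling, 1066 of all genes were lower and 2609 higher. Without the Gcn libraries numbered 1, 3 were lower and 2 higher, where 1483 of all genes were lower and 1808 higher. Without Gcn Unstarved 2 the calls numbered 5, and those over all genes 2171. This comparison shares its unstarved libraries with that of arginine in Gcn cells. The fibroblast markers, mostly Fn1, summed to 519.9 to 706 CPM in Gcn Leu, against 413 to 561 CPM in Gcn Unstarved, and their part was not tested.

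Xbp1 and Hspa5 had the widest changes of the 32 genes in Gcn Leu. Xbp1 had 37.6, 32.1 and 36.4 CPM in Gcn Leu, less than the 75.0 to 92.1 CPM of every Gcn Unstarved library (2.27-fold lower, log2 -1.18 ± 0.10, adjusted p = 7.3e-06). Hspa5 had 419, 378 and 449 CPM in Gcn Leu, against 713 to 814 CPM in Gcn Unstarved (1.83-fold lower, log2 -0.87 ± 0.12, adjusted p = 0.000204). Hsp90b1 had 653, 674 and 762 CPM in Gcn Leu, against 890.1 to 940.1 CPM in Gcn Unstarved (log2 -0.39 ± 0.11, adjusted p = 0.0166, or 0.0561 without Gcn Leu 1). All 3 genes lay below every Gcn Unstarved library in each Gcn Leu library. Sdf2l1 (41.7, 45.3 and 41.5 CPM in Gcn Leu, log2 -0.11, adjusted p = 0.48) and Dnajb9 (27.1, 38.2 and 33.6 CPM in Gcn Leu, log2 -0.04, adjusted p = 0.868) were not called.

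Degradation genes went both ways in Gcn Leu. Os9, a lectin that hands glycoproteins to the HRD1 ligase, had 26.2, 20.1 and 20.3 CPM in Gcn Leu, against 16.2, 15.1 and 15.0 CPM in Gcn Unstarved (1.45-fold higher, log2 0.53 ± 0.12, adjusted p = 0.00678). Derl2 was higher by 0.32 ± 0.08 (adjusted p = 0.0118), lost without Gcn Unstarved 2 or 3 (at most 0.052). Edem3 had 69.4, 67.3 and 79.5 CPM in Gcn Leu, against 101, 91.9 and 89.8 CPM in Gcn Unstarved (log2 -0.38 ± 0.11, adjusted p = 0.0233), and Edem1 was lower by -0.29 ± 0.09 (adjusted p = 0.0266). Edem1 lost its call without Gcn Leu 2, Gcn Leu 3, Gcn Unstarved 1 or Gcn Unstarved 2 (highest adjusted p = 0.102), and Edem3 without Gcn Leu 1, Gcn Leu 2, Gcn Unstarved 1 or Gcn Unstarved 2 (highest adjusted p = 0.0791). P4hb, the isomerase that did not differ by call between unstarved genotypes, had 427, 403 and 361 CPM in Gcn Leu, against 498, 501 and 519 CPM in Gcn Unstarved (log2 -0.34 ± 0.08, adjusted p = 0.00841).

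In wild-type cells the changes were small and went both ways. In Wt Arg against Wt Unstarved, 9 of 32 genes were called lower and 4 higher, where 20.0% of all 16140 genes were lower and 20.9% higher, so the share of genes called was close to that of all genes. The median log2 fold change was -0.05 over the 32 genes and -0.01 over all genes. No member changed by more than 1.34-fold in either direction. With the replicate block, 11 were lower and 7 higher, where the calls gained were Pdia5 (log2 -0.17, adjusted p = 0.0485) and Sec61b (-0.22, adjusted p = 0.0177), both lower, and Canx (0.14, adjusted p = 0.0379), Derl2 (0.16, adjusted p = 0.021) and Syvn1 (0.19, adjusted p = 0.00867), all higher. Over all genes, the block called 4069 lower and 4025 higher. Scaled by library size only, 7 of the 32 were lower and 6 higher, where 2823 of all genes were lower and 3714 higher. With all 18 libraries in 1 fit, 6 were lower and 2 higher, where 2604 of all genes were lower and 2884 higher. The fibroblast markers, mostly Fn1, summed to 787 to 1033 CPM in Wt Arg, against 505 to 583 CPM in Wt Unstarved, and their part was not tested.

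Ern1, Xbp1 and Hspa5 were lower in Wt Arg. Ern1 had 8.65, 9.002 and 10.3 CPM in Wt Arg, against 12.0, 13.3 and 12.2 CPM in Wt Unstarved (log2 -0.42 ± 0.10, adjusted p = 0.00274). Xbp1 had 37.0, 34.0 and 34.6 CPM in Wt Arg, against 41.3 to 53.6 CPM in Wt Unstarved (log2 -0.39 ± 0.09, adjusted p = 0.00159). Hspa5 had 453, 388 and 439 CPM in Wt Arg, against 528 to 532 CPM in Wt Unstarved (log2 -0.31 ± 0.08, adjusted p = 0.00805). No library overlapped the other group in these genes. Edem2 had 25.1, 22.5 and 24.8 CPM in Wt Arg, against 31.4, 29.4 and 31.5 CPM in Wt Unstarved (log2 -0.35 ± 0.08, adjusted p = 0.00166). Edem1 (-0.26 ± 0.06), Manf (-0.25 ± 0.07), Sec24d (-0.24 ± 0.08), Sec61a1 (-0.19 ± 0.06) and Creld2 (-0.18 ± 0.07) were lower by less.

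A pair of BiP's co-chaperones rose where BiP fell. Dnajc3 had 37.6, 35.5 and 39.0 CPM in Wt Arg, against 26.6 to 28.9 CPM in Wt Unstarved (1.34-fold higher, log2 0.42 ± 0.08, adjusted p = 0.00037). Dnajb9 had 28.5, 29.2 and 29.0 CPM in Wt Arg, against 21.5 to 26.7 CPM in Wt Unstarved (log2 0.27 ± 0.09, adjusted p = 0.0217). Erp44 (0.24 ± 0.07) and Atf6 (0.21 ± 0.08, adjusted p = 0.0327, with overlapping groups) were the other genes called higher. Hsp90b1 (649, 609.6 and 686 CPM in Wt Arg, against 551 to 618 CPM in Wt Unstarved) and Sdf2l1 (27.6, 26.7 and 28.5 CPM, against 24.3 to 32.1 CPM) were not called.

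Of the 13 calls in Wt Arg, 7 were lost without single libraries. Atf6 lost its call without Wt Arg 1, Wt Arg 3, Wt Unstarved 2 or Wt Unstarved 3 (highest adjusted p = 0.153). Dnajb9 lost it without Wt Arg 2 or Wt Unstarved 1 (0.129 at most), and Erp44 without Wt Arg 2 or Wt Arg 3 (0.0532). For Creld2 the libraries were Wt Arg 1, Wt Arg 2, Wt Unstarved 1 and Wt Unstarved 3 (0.201 at most), and for Manf Wt Unstarved 3 (0.0551). Sec61a1 was not called without Wt Arg 1, Wt Arg 2 or Wt Unstarved 3 (0.135 at most), nor Sec24d without Wt Arg 1 or Wt Unstarved 2 (0.06 at most). The calls of Ern1, Xbp1, Hspa5, Dnajc3, Edem1 and Edem2 held without each library in turn.

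Leucine starvation of wild-type cells, which shares the Wt Unstarved libraries with the arginine comparison, gave 9 of 32 genes higher and 4 lower, where 15.5% of all 16140 genes were higher and 14.1% lower. The median log2 fold change was -0.01 over the 32 genes and 0.01 over all genes, and the fibroblast markers, whose part was not tested, summed to 768 to 917 CPM in Wt Leu, against 505 to 583 CPM in Wt Unstarved. Xbp1 had 35.4, 34.9 and 33.6 CPM in Wt Leu, against 41.3 to 53.6 CPM in Wt Unstarved (log2 -0.42 ± 0.09, adjusted p = 0.00164). Ern1 had 9.72, 8.64 and 9.70 CPM in Wt Leu, against 12.0 to 13.3 CPM in Wt Unstarved (log2 -0.42 ± 0.10, adjusted p = 0.00444). Hspa5 had 489.9, 406 and 380.5 CPM in Wt Leu, against 528 to 532 CPM in Wt Unstarved (log2 -0.32 ± 0.09, adjusted p = 0.01). The fourth lower gene was Hyou1 (-0.20 ± 0.07), whose call was lost without any Wt Leu library or without Wt Unstarved 2 or 3 (highest adjusted p = 0.128).

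The genes higher in Wt Leu came from most roles. Syvn1 had 48.4, 44.6 and 50.9 CPM in Wt Leu, against 33.9 to 41.0 CPM in Wt Unstarved (1.31-fold higher, log2 0.39 ± 0.09, adjusted p = 0.0038). Dnajb9 had 29.5, 34.1 and 29.4 CPM in Wt Leu, against 21.5 to 26.7 CPM in Wt Unstarved (log2 0.37 ± 0.09, adjusted p = 0.00436). Atf6 had 56.4, 52.4 and 52.8 CPM in Wt Leu, against 45.6, 37.9 and 41.7 CPM in Wt Unstarved (log2 0.36 ± 0.08, adjusted p = 0.00164). Derl2 (0.31 ± 0.07), Canx (0.26 ± 0.07), Os9 (0.26 ± 0.09), Erp44 (0.25 ± 0.07), Dnajc3 (0.24 ± 0.08) and Pdia4 (0.24 ± 0.06) were higher by less. Of these, Os9 lost its call without any of the 6 libraries (highest adjusted p = 0.13), and Dnajc3 without Wt Leu 1, Wt Leu 3, Wt Unstarved 1 or Wt Unstarved 3 (highest adjusted p = 0.131). Hsp90b1 (694, 534 and 585 CPM in Wt Leu, log2 0.06, adjusted p = 0.629) and Sdf2l1 (28.0, 27.1 and 26.3 CPM in Wt Leu, log2 -0.08, adjusted p = 0.537) were not called.

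**Figure D4:**
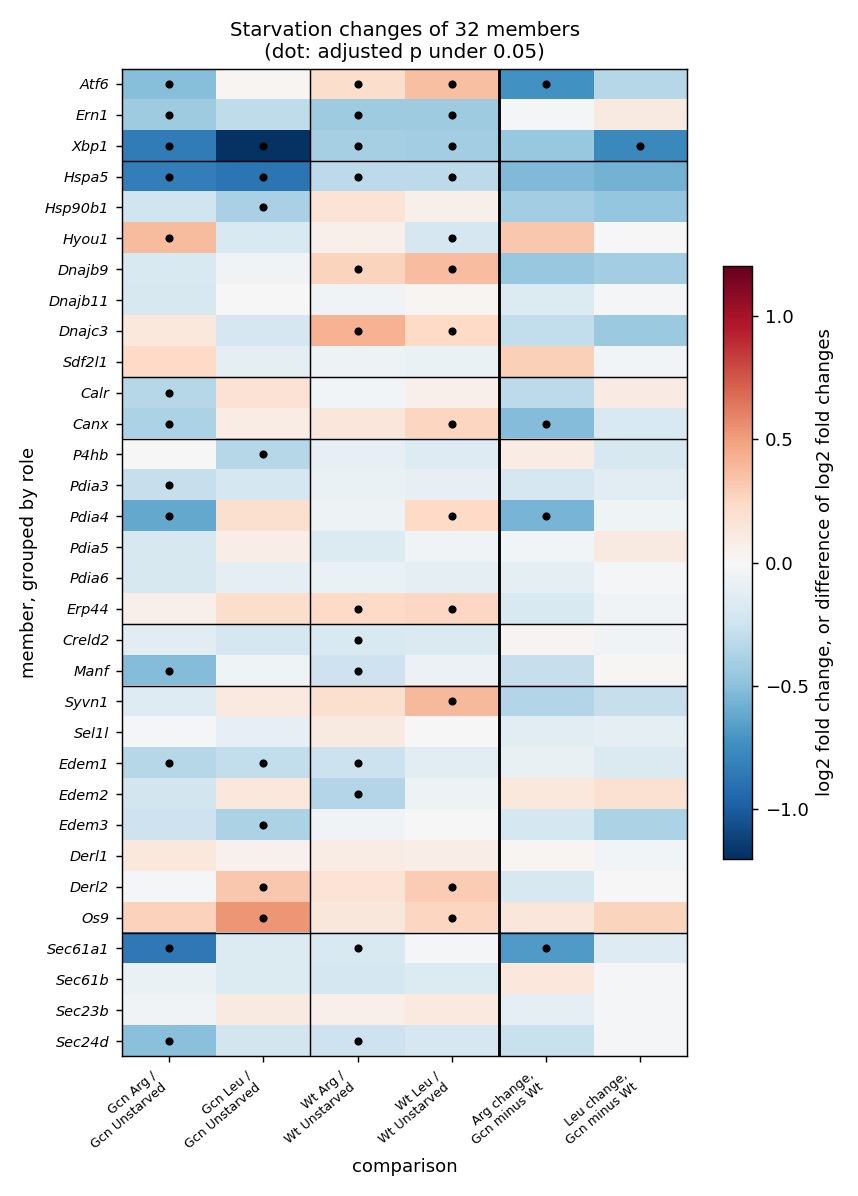
Log2 fold changes of the 32 genes (rows, grouped by role) with starvation in Gcn and Wt cells, and in the last pair of columns the difference of those changes, Gcn minus Wt. Blue is lower and red higher, dots mark an adjusted p under 0.05, and Xbp1 and Hspa5 are blue with a dot in all 4 starvation columns.

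The 8 genes Dnajb11, Sdf2l1, Pdia5, Pdia6, Sel1l, Derl1, Sec61b and Sec23b were not called in any of the 4 comparisons of starved with unstarved cells. The other 24 were called in at least 1, but the share of all genes called in at least 1 of the 4 was not computed. With the replicate block, Dnajb11 (log2 -0.20, adjusted p = 0.00746), Sdf2l1 and Pdia6 (-0.19, adjusted p = 0.00753) were called in Gcn Arg, Pdia5 in Wt Arg, and Sec61b in Gcn Leu (-0.16, adjusted p = 0.0375) and Wt Arg. Over the 6 groups, the means of Derl1 had the narrowest range, with 82.0 CPM in Gcn Unstarved as the lowest and 91.5 CPM in Wt Arg as the highest. Those of Xbp1 had the widest, 2.33-fold, with 80.7 CPM in Gcn Unstarved as the highest and 34.6 CPM in Wt Leu as the lowest. In starved cells, Xbp1 averaged 44.9 and 35.4 CPM in Gcn Arg and Gcn Leu, against 35.2 and 34.6 CPM in Wt Arg and Wt Leu. Hspa5 averaged 427 and 415 CPM in Gcn Arg and Gcn Leu, against 427 and 425 CPM in Wt Arg and Wt Leu. For other genes the genotypes lay further apart in arginine starvation than unstarved: Hyou1 averaged 455 CPM in Gcn Arg and 251 CPM in Wt Arg, against 351 CPM in Gcn Unstarved and 242 CPM in Wt Unstarved, and Sec61a1 averaged 139.5 CPM in Gcn Arg and 268 CPM in Wt Arg, against 254 CPM in Gcn Unstarved and 306 CPM in Wt Unstarved. The levels of starved Gcn and Wt cells were not tested against each other. In the test of the difference of the arginine changes below, Sec61a1 was called. Hyou1 was not called there, although it was with the replicate block (log2 0.32, adjusted p = 0.00318). Of the 8 genes with an ERSE, 3 fell in Gcn Arg, 2 fell in Gcn Leu, 2 fell and 1 rose in Wt Arg, and 1 fell and 3 rose in Wt Leu. Over all genes tested, 13.7% were lower and 14.3% higher in Gcn Arg, and 10.0% and 11.7% in Gcn Leu. The shares in Wt Arg were 20.0% lower and 20.9% higher, and in Wt Leu 14.1% and 15.5%.

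Whether starvation acts differently in the genotypes was tested on the difference of their log2 fold changes, Gcn minus Wt. For arginine, 4 of 32 genes were called, each with a lower change in Gcn, where 1.68% of all 16924 genes were lower and 0.620% higher. Atf6 changed by log2 -0.51 in Gcn and by 0.21 in Wt, a difference of -0.73 ± 0.12 (adjusted p = 0.00142). Sec61a1 changed by -0.86 in Gcn and by -0.19 in Wt (difference -0.68 ± 0.11, adjusted p = 0.00126). Pdia4 changed by -0.62 in Gcn, and stood at -0.06 in Wt, where it was not called (difference -0.56 ± 0.09, adjusted p = 0.00142). Canx changed by -0.38 in Gcn, and stood at 0.14 in Wt, where it was called with the replicate block alone (difference -0.52 ± 0.11, adjusted p = 0.00939).

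These differences of Atf6, Sec61a1, Pdia4 and Canx were called without each library in turn and without the Gcn libraries numbered 1. With the replicate block within each genotype, 12 genes had a lower and 1 a higher change in Gcn. Over all 16924 genes, the block called 1505 lower and 1000 higher. Those gained include Hspa5 (difference -0.53 ± 0.15, adjusted p = 0.0748 without the block and 0.00297 with it), Xbp1 (-0.45 ± 0.14, 0.0846 and 0.00544) and Dnajb9 (-0.46 ± 0.16, 0.138 and 0.0029). Hsp90b1 (-0.41 ± 0.14, adjusted p = 0.122 and 0.0655 with the block) and Sdf2l1 (0.29 ± 0.13, adjusted p = 0.277 and 0.0713 with the block) were called in neither fit. Gcn Unstarved enters both the genotype comparison and these differences, so a high level there raises one and lowers the other.

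For leucine, Xbp1 was the one gene of 32 called, with a lower change in Gcn, where 0.668% of all genes were lower and 0.154% higher. Xbp1 changed by log2 -1.18 in Gcn and by -0.42 in Wt, a difference of -0.77 ± 0.14 (adjusted p = 0.00411). The difference stood at -0.70 without the Gcn libraries numbered 1 (adjusted p = 0.00981). Hspa5 (-0.57 ± 0.15, adjusted p = 0.0898), Hsp90b1 (-0.47 ± 0.14, adjusted p = 0.129), Dnajb9 (-0.42 ± 0.16, adjusted p = 0.23) and Sdf2l1 (-0.03 ± 0.13, adjusted p = 0.953) were not called. With the replicate block, 6 of the 32 were called, Hspa5 and Dnajb9 among them, where 1129 of all genes were lower and 749 higher. The replicate numbers were not taken to pair Wt Leu with Wt Unstarved, although the block was fitted over all libraries of each genotype.

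The starvations were also set against each other. In Gcn Leu against Gcn Arg, 7 of 32 genes were higher and 5 lower, where 4.64% of all 16369 genes were higher and 3.88% lower. Pdia4 had 324, 329 and 307 CPM in Gcn Leu, against 177 to 186 CPM in Gcn Arg (1.76-fold higher, log2 0.81 ± 0.08, adjusted p = 7.48e-05). Sec61a1 had 241, 228 and 207 CPM in Gcn Leu, against 132 to 154 CPM in Gcn Arg (1.62-fold higher, log2 0.69 ± 0.09, adjusted p = 0.000366). Atf6 had 45.3, 44.9 and 46.2 CPM in Gcn Leu, against 27.9 to 34.3 CPM in Gcn Arg (log2 0.54 ± 0.09, adjusted p = 0.00346). Against Gcn Unstarved, these genes fell in Gcn Arg and were not called in Gcn Leu, where with the replicate block Pdia4 was higher (log2 0.20, adjusted p = 0.00372) and Sec61a1 lower (-0.17, adjusted p = 0.012).

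The lectins had the direction of Pdia4. Calr had 1239.6, 1242 and 1107 CPM in Gcn Leu, against 890.4, 863 and 763 CPM in Gcn Arg (log2 0.51 ± 0.09, adjusted p = 0.00259). Canx had 844, 904 and 936 CPM in Gcn Leu, against 708, 584 and 649 CPM in Gcn Arg (log2 0.47 ± 0.09, adjusted p = 0.00597). Manf (0.47 ± 0.09) and Derl2 (0.34 ± 0.08) were higher as well. Hyou1 went the other way, with 345, 298 and 277 CPM in Gcn Leu, against 412 to 522 CPM in Gcn Arg (log2 -0.57 ± 0.11, adjusted p = 0.00443). P4hb (-0.34 ± 0.08), Sdf2l1 (-0.34 ± 0.09), Xbp1 (-0.34 ± 0.10) and Dnajc3 (-0.33 ± 0.09) were lower, with adjusted p-values of 0.021 to 0.0488. Hspa5 (log2 -0.04), Hsp90b1 (-0.15) and Dnajb9 (0.14) were not called.

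The smaller calls between the starvations of Gcn cells were fragile. With only these groups in the fit, 6 genes were higher and 1 lower, where 489 of all genes were higher and 450 lower. Without Gcn Arg 3 or Gcn Leu 2, 7 were called, where the calls over all genes numbered 711 and 710. Xbp1 lost its call without any of the 6 libraries (highest adjusted p = 0.177), and Sdf2l1 without any but Gcn Arg 1 (0.119). Dnajc3 lost it without Gcn Arg 1, Gcn Arg 3, Gcn Leu 1 or Gcn Leu 2 (0.129), P4hb without Gcn Arg 1, Gcn Arg 3, Gcn Leu 2 or Gcn Leu 3 (0.071), and Derl2 without Gcn Arg 1, Gcn Arg 3 or Gcn Leu 2 (0.0986). With the block, 14 were higher and 5 lower, where 2350 of all genes were higher and 2012 lower. Pdia4, Sec61a1, Hyou1, Atf6, Calr, Canx and Manf were called without each library in turn.

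In Wt Leu against Wt Arg, 2 of 32 genes were higher and 1 lower, where 5.25% of all 16140 genes were higher and 4.76% lower. Pdia4 had 253, 239 and 230.2 CPM in Wt Leu, against 203, 179 and 203 CPM in Wt Arg (log2 0.30 ± 0.06, adjusted p = 0.00582). Edem2 had 29.7, 27.5 and 31.4 CPM in Wt Leu, against 22.5 to 25.1 CPM in Wt Arg (log2 0.29 ± 0.08, adjusted p = 0.0282). Hyou1 had 208, 209.9 and 214 CPM in Wt Leu, against 243, 232 and 279 CPM in Wt Arg (log2 -0.26 ± 0.07, adjusted p = 0.0227). Pdia4 and Hyou1 had these directions in both genotypes. Edem2 was not called without Wt Leu 1, Wt Leu 3, Wt Arg 2 or Wt Arg 3 (highest adjusted p = 0.138), nor Hyou1 without Wt Arg 3 or any Wt Leu library (0.133). With the block, 5 genes were higher and 2 lower, where 1717 of all genes were higher and 1611 lower. With all 18 libraries in 1 fit, 1 was called, where the calls over all genes numbered 916. Xbp1 (log2 -0.03), Hspa5 (-0.01), Hsp90b1 (-0.10), Dnajb9 (0.10) and Sdf2l1 (-0.03) were not called.

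Other genes of the pathway were read from 6 lists of 116 genes, of which 115 passed the filter on low counts and Ern2 did not. The PERK and ATF4 arm had 7 genes, and the starvations had opposite directions there in the genotypes: 4 of 7 were lower in Gcn Arg and in Gcn Leu, against 7 of 7 higher in Wt Arg and in Wt Leu. Chac1, a glutathione-degrading enzyme, changed by log2 -1.49 ± 0.18 in Gcn Arg and -2.27 ± 0.18 in Gcn Leu, against 2.54 ± 0.23 in Wt Arg and 1.87 ± 0.23 in Wt Leu. In each test of the difference between genotypes, 6 of the 7 had a lower change in Gcn. Herpud1, a degradation factor of the ER membrane and a known ATF4 and ER stress target, had the same pattern, with 18.1 ± 2.2, 13.9 ± 0.5 and 42.9 ± 4.8 CPM in Gcn Arg, Gcn Leu and Gcn Unstarved, against 105 ± 4.7, 64.6 ± 6.9 and 29.4 ± 6.6 CPM in Wt Arg, Wt Leu and Wt Unstarved (SD, n = 3). Its change with arginine starvation was lower in Gcn than in Wt by log2 -3.08 ± 0.18 (adjusted p = 1.34e-09), which no member of the 32 approached.

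Over all genes tested, 14.3% were higher and 13.7% lower in Gcn Arg, and 11.7% and 10.0% in Gcn Leu. These shares were 20.9% and 20.0% in Wt Arg, and 15.5% and 14.1% in Wt Leu. Of the 108 genes tested outside that arm, 13 were higher and 22 lower in Gcn Arg, and 18 and 15 in Gcn Leu. In Wt Arg 19 were higher and 28 lower, and in Wt Leu 21 and 17. Of the 20 other COPII and cargo receptor genes, 1 was higher and 6 lower in Gcn Arg and in Gcn Leu, and 2 were higher and 7 lower in Wt Arg and in Wt Leu. Their median log2 fold changes were -0.21, -0.19, -0.07 and -0.07 in the same order. Sec16a, a gene of that list which organizes ER exit sites, was higher in all 4 (log2 0.98 ± 0.11 in Gcn Arg, 0.53 ± 0.11 in Gcn Leu, 1.10 ± 0.07 in Wt Arg and 0.65 ± 0.07 in Wt Leu), and so was Sec62, a partner of the Sec61 channel (0.69 ± 0.10, 0.51 ± 0.10, 0.69 ± 0.06 and 0.46 ± 0.06 in the same order). Creb3, a membrane-bound transcription factor related to ATF6, was higher in all 4 as well (0.63 ± 0.12, 0.74 ± 0.12, 0.44 ± 0.08 and 0.41 ± 0.08). Among genes lower in Gcn Arg were Tmed2, a cargo receptor (-0.94 ± 0.12), and Tram1, a translocon partner (-0.72 ± 0.09). The comparisons within a genotype share their unstarved libraries.

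In Gcn Unstarved against Wt Unstarved, 24 of the 115 pathway genes were higher (20.9%) and 18 lower (15.7%), near the 16.6% and 16.2% of all genes tested, with a median log2 fold change of 0.03. Derl3, a derlin that ER stress induces, was highest (1.72 ± 0.13, adjusted p = 1.48e-09), with 14.7 ± 1.2 CPM in Gcn Unstarved, against 4.47 ± 0.33 CPM in Wt Unstarved. Of the 28 other translocation, signal peptidase and glycosylation subunits, 7 were higher, among them the signal peptidase subunits Sec11c (0.49 ± 0.13) and Spcs3 (0.48 ± 0.08). The 28 other folding and redox enzymes split evenly, with 8 higher, such as the thiol oxidase Ero1lb (0.95 ± 0.23), and 8 lower, such as the collagen chaperone Fkbp10 (-0.97 ± 0.11). Of the 9 other sensors and transcription factors tested, 2 were higher and 2 lower, and of the 23 other degradation factors, 2 were higher and 5 lower. Of the 20 other COPII and cargo receptor genes, 4 were higher and 2 lower. Mia3, which loads collagen into COPII carriers, was higher by 0.72 ± 0.12, and Sec23a, a COPII coat subunit, by 0.56 ± 0.08. Of the PERK and ATF4 arm, Ddit3, which encodes CHOP, was higher (0.87 ± 0.17), Ppp1r15a was lower (-0.36 ± 0.10) and 5 were not called.

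Some levels are uncertain because exons of another gene overlap them and the strand setting of the counting is not given in the sources used here. Opposite-strand exons overlap Hsp90b1, Dnajb9, Pdia3, Pdia6, Manf, Syvn1, Derl2 and Sec61a1. Same-strand exons of small or unnamed genes overlap Hsp90b1 and Pdia4, and exons of Rbm15b overlap Manf.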

How the data were processed

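The deposited tables, 1 per genotype, hold whole-number raw counts per Ensembl gene. Per the submitters' processing notes, the tools behind the tables include HTSeq and STAR 2.7.4a with build GRCm38, and also FastQC 0.11.7, bcl2fastq, R 4.0.3, DESeq 1.30.1 and DESeq2. The annotation release behind the counts, and whether counting used strand, is not given in the sources used here. Per the labels' protocols, a directional poly(A) kit was used on 1 µg of RNA, and reads were 43 bp pairs in 1 sequencing kit. Symbols were matched through GENCODE vM21 for 55144 of 55471 identifiers, and the rest took no more than 0.0147% of the counts in any library. The normalized tables that the authors also deposited were not used.

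The test across genes was that of edgeR 4.0.16 under R 4.3.3 (with limma 3.58.1): filterByExpr, TMM scaling, robust quasi-likelihood F test and Benjamini-Hochberg adjustment over all genes tested, with a call at an adjusted p under 0.05. Adjusted p-values are from edgeR where the text names no tool. SE is |log2 fold change| over the root of F. Comparisons within a genotype used its 9 libraries, and comparisons between genotypes all 18. CPM are counts per M counts of the TMM-scaled library, and CPM per kb divide them by merged exon length. The scripts were tested on simulated data. Alternatives were relative log expression factors, library size only, no filter on low counts, DESeq2 1.42.0, limma-voom, the replicate block, other sets of libraries in the fit and each library left out in turn.

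The members, lists and tests were chosen with earlier results of these data known. Values per library are given for at most 6 called members of largest change in a comparison and for Hspa5, Xbp1, Dnajb9, Hsp90b1 and Sdf2l1. The other lists name at most 3 called genes per comparison. The lists are the sensors and transcription factors, the PERK and ATF4 arm, folding and redox enzymes, degradation factors, translocation subunits, and COPII and cargo receptors.

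The labels number the replicates 1 to 3 in each group. Deviations from the group means correlated between same-numbered libraries by 0.186 to 0.523 among the Gcn groups, by 0.111 to 0.231 between Wt Arg and Wt Unstarved and by 0.2 to 0.32 between Wt Leu and Wt Arg, so those numbers were taken to pair the libraries. Between Wt Leu and Wt Unstarved (0.054 to 0.23) and between Gcn Unstarved and Wt Unstarved (-0.159 to 0.029) they were not. Wt Arg was taken to pair with both Wt Leu and Wt Unstarved, so leaving out that pair rests on the low value of 0.054. Some differently numbered libraries also correlated, such as Gcn Arg 2 with Gcn Unstarved 3 (0.239). Within a genotype and in the differences between genotypes, the block gave each number a shared effect over all groups of a genotype. Blocked values of Wt Arg and of the differences thus also join Wt Leu with Wt Unstarved. The pairing is uncertain, and calls given without mention of the block do not use it.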

Additional observations from a re-analysis of the deposited data

Results flagged for a closer look

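The change with arginine starvation differed between the genotypes for 4 genes, by a test of the difference itself. The difference, Gcn minus Wt on the log2 scale, was -0.73 for Atf6, -0.52 for Canx, -0.56 for Pdia4 and -0.68 for Sec61a1. For Atf6 the Gcn and Wt changes had opposite signs and both were called, but the Wt call was lost without Wt Arg 1, Wt Arg 3, Wt Unstarved 2 or Wt Unstarved 3 (highest adjusted p = 0.153) and with all 18 libraries in 1 fit. Over all alternatives run, these differences stayed called and ranged from -0.79 to -0.64 for Atf6 (highest adjusted p = 0.00668), from -0.59 to -0.43 for Canx (0.0354), from -0.61 to -0.47 for Pdia4 (0.00812) and from -0.75 to -0.59 for Sec61a1 (0.00658).

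The change with leucine starvation differed between the genotypes for Xbp1, by -0.77, and ranged from -0.89 to -0.67 over all alternatives run (highest adjusted p = 0.0217). Both genotypes had lower Xbp1 with leucine starvation.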

How the results depend on the processing

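No result changed direction at a called value under any alternative run. With the replicate block, the members called numbered 23 in Gcn Arg, 19 in Gcn Leu, 18 in Wt Arg, 19 in Gcn Leu against Gcn Arg, 7 in Wt Leu against Wt Arg and 13 in the arginine difference between genotypes, and, where the numbers were not taken to pair the libraries, 17 in Wt Leu, 20 between the unstarved genotypes and 6 in the leucine difference (Atf6, Hspa5, Dnajb9, Dnajc3 and Syvn1 beside Xbp1). All calls made without the block were among those made with it, and the cause of the gains was not tested. The block raised the calls over all genes in every comparison as well. In Gcn Arg they went from 4583 to 7602, and in the arginine difference from 390 to 2505. With all 18 libraries in 1 fit, 8 were called in Wt Arg and 1 in Wt Leu against Wt Arg. With only the groups compared in the fit, 7 were called in Gcn Leu against Gcn Arg. Without a filter on low counts, 8 were called in the arginine difference and 3 in the leucine difference, and DESeq2 called 3 in the leucine difference as well. Without the Gcn libraries numbered 1, 5 were called in Gcn Leu. Leaving out each library in turn gave 10 to 13 calls in Gcn Arg, 5 to 7 in Gcn Leu, 10 to 12 in Wt Arg, 10 to 13 in Wt Leu, 7 to 11 in Gcn Leu against Gcn Arg, 1 to 3 in Wt Leu against Wt Arg, 18 to 21 between the unstarved genotypes, 4 to 5 in the arginine difference and 1 to 2 in the leucine difference (2 without Gcn Leu 3). Of the log2 fold changes of single genes under all alternatives, 4269 stayed on their side of the threshold, 138 lost a call and 105 gained one. With 3 libraries a group, small changes were not detectable at this depth in every gene, and the lowest count of a member was 125.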

Other observations

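An ERSE was also found in the promoter windows of 29 genes outside the 32, of which 15 passed the filter on low counts in the fit of all libraries. In Gcn Unstarved against Wt Unstarved, 8 of these 15 were called higher and 2 lower, with a median log2 fold change of 0.55, where 16.6% of all genes tested were called higher. The names and values that follow were picked after the values were seen. Higher were Derl3, a derlin (log2 1.72 ± 0.13), Ero1lb, a thiol oxidase of the ER (0.95 ± 0.23), Zfp57, a zinc finger protein of imprinted loci (0.55 ± 0.07), Alg12, a mannosyltransferase of glycan assembly (0.42 ± 0.14), and Pan2, a deadenylase subunit (0.21 ± 0.08). Xlr3a (1.98 ± 0.11), Xlr3b (1.82 ± 0.15) and Xlr3c (2.51 ± 0.17) are near-identical copies whose reads may be shared, so they do not count as separate genes. Without these copies, 5 of 12 genes were higher and 2 lower, with a median of 0.39. Lower were Acacb, an acetyl-CoA carboxylase (-0.45 ± 0.09), and Spats2l (-0.78 ± 0.22).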
